A study of Homo sapiens with 4 samples.

Results

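Box H/ACA small nucleolar RNAs and small Cajal body RNAs were examined in MOLM-13 cells, an established human line from an acute myeloid leukaemia, after lentiviral delivery of CRISPR-Cas9. They were taken as all symbols that start with SNORA or SCARNA and a number and that averaged at least 1 TPM over the 4 libraries. TPM is the share of a library's transcripts, corrected for transcript length, with a total of 1000000. This gave 120 genes, 97 SNORA and 23 SCARNA, out of 207 symbols with such names and 27800 symbols in all. The remaining 87 symbols averaged less than 1 TPM, and 70 of the 207 were at 0 in every library. Just inside the limit lay SCARNA26B at a mean of 1.02 TPM, SNORA75B at 1.04 TPM and SNORA38B at 1.04 TPM. Just outside it lay SNORA59B at 0.995 TPM, SNORA113 at 0.935 TPM and SNORA15 at 0.838 TPM.

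The libraries formed 2 groups of 2, one transduced with CRISPR-Cas9 and a guide against KAT6A (sgKAT6A) and one with the vector labelled EV. All cells came from the same line and were taken to carry the lentiviral CRISPR-Cas9 system, although what EV carries is not named. The labels do not say whether replicates were separate transductions or cultures, or whether cells were cloned, and the p-values cover only library-to-library spread. The labels name neither the guide nor what EV carries, and they state no harvest time. In bulk RNA, fewer expressing cells and less RNA per cell cannot be told apart.

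Box H/ACA RNAs fold into a pair of hairpins joined by a hinge that carries the H box, followed by a tail with the ACA box. Each hairpin can pair with a target RNA and place one of its uridines in the active site of dyskerin (DKC1), which converts it to pseudouridine. Small nucleolar RNAs (SNORA) direct this on ribosomal RNA in the nucleolus, and small Cajal body RNAs (SCARNA) act on spliceosomal small nuclear RNAs in Cajal bodies. Some SCARNA genes belong instead to the box C/D class, which guides ribose methylation, and some carry both kinds of domain. Most of these RNAs are cut from introns of host genes, so their levels also depend on splicing and on protection by the bound proteins. None is thought to carry a poly(A) tail when mature, and the labels give total RNA from an RNeasy kit without saying how it was selected for the libraries.

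The sequences below are those on which the results turn, read from the GENCODE 29 transcripts on GRCh38. Capitals mark the H box as ANANNA nearest the middle of the RNA, and ACA within the last 10 bases. The ANANNA was sought only from starts in the middle one of 3 equal parts. None was found there in SNORA57 and SNORA1, which does not show that they lack an H box. SNORA57 (chr11:62665422-62665570, plus strand) and SCARNA21 (chr17:7906122-7906260, plus strand) were among the abundant RNAs with the most TPM in sgKAT6A replicate 2. SNORA6 (chr3:39408389-39408539) and SNORA62 (chr3:39411054-39411206) lie in RPSA on the plus strand, and SNORA63 (chr3:186787300-186787431) and SNORA81 (chr3:186786675-186786852) in EIF4A2 on the plus strand, and each pair differed between libraries in its own way. SNORA40 (chr11:93735111-93735236) and SNORA1 (chr11:93732004-93732133) lie in TAF1D on the minus strand. SNORA13 (chr5:112161485-112161617, plus strand, in an intron of EPB41L4A-AS1) had the smallest p of all 120.
SNORA57: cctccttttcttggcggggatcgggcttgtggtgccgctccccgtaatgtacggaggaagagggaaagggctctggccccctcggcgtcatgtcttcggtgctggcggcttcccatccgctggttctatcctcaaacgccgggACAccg
SCARNA21: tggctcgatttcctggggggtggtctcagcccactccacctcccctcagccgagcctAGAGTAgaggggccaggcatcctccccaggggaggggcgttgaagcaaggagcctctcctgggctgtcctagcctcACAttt
SNORA6: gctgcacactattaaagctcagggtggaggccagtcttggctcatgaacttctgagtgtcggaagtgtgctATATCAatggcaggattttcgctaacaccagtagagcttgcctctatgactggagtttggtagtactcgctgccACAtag
SNORA62: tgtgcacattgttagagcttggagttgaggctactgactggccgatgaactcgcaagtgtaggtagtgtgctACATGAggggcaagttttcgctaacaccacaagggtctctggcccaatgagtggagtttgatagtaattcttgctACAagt
SNORA63: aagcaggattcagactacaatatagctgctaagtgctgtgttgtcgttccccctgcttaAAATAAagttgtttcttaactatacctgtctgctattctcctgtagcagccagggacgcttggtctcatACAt
SNORA81: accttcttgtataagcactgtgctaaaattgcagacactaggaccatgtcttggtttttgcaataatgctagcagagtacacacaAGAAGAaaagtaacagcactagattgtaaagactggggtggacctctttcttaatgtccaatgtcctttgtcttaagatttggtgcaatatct
SNORA40: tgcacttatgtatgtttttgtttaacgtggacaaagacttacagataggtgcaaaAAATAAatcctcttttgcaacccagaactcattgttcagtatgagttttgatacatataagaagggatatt
SNORA1: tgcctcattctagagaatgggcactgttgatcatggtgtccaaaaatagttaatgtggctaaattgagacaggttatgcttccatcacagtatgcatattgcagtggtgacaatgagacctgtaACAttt
SNORA13: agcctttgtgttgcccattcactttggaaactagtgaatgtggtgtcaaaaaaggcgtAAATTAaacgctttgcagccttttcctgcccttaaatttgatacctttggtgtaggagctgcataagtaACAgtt

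The box motifs followed the names for most SNORA and less closely for the SCARNA. Of 91 SNORA with a GENCODE sequence, 82 (90.1%) had ACA within the last 10 bases on the sense strand, and 84 (92.3%) had ANANNA in the middle one of 3 equal parts. For comparison, 5.09% of 275 box C/D (SNORD) genes of the annotation had ACA in that window, while 56.0% of them had the looser ANANNA. Among the SNORA and SCARNA symbols below the limit, 88.9% of 54 had the ACA. None of the 4 box C/D SCARNA (SCARNA2, SCARNA7, SCARNA9 and SCARNA17) had it, whereas all 10 of the other SCARNA with a sequence outside the mixed class did. All 4 mixed RNAs (SCARNA5, SCARNA6, SCARNA10 and SCARNA12) had TGATGA, the usual form of the C box, within the first 30 bases. They also all had CTGA, the D box, within the last 20, but only 1 of the 4 had the ACA. Of the 4 box C/D SCARNA, 1 had TGATGA and 3 had CTGA in those windows, and 1 had both. Of the SNORD genes, 69.8% had both. The SCARNA17 sequence searched had 144 bases, against 421 in its RefSeq record, so its windows did not reach the RefSeq ends. SNORA40 and SNORA81 had no ACA in the last 10 annotated bases.

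All 120 RNAs matched a RefSeq record, and their lengths ran from 121 to 421 bases with a median of 135. Of the 109 with a strand in the annotation, 104 lay within another gene on the same strand, 85 of them in a protein-coding gene. For 62 the RNA was intronic in every annotated transcript of that host, and for 42 it overlapped an exon of at least 1 transcript, so reads of a host transcript with a retained intron may be counted there. TAF1D, a subunit of the RNA polymerase I initiation factor SL1, held the most, namely SNORA1, SNORA8, SNORA18, SNORA25, SNORA32 and SNORA40. Genes of ribosomal proteins and translation factors were frequent hosts, among them RPL10 for SNORA70, RPS12 for SNORA33, RPLP2 for SNORA52, EIF4A1 for SNORA48 and SNORA67, and RPS2 for SNORA10 and SNORA64.

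KAT6A, the targeted histone acetyltransferase gene, was at 12.2 and 10.8 TPM in the sgKAT6A libraries and at 16.2 and 16.7 TPM in the EV libraries (log2 difference -0.48 ± 0.13 (SE), limma adjusted p = 0.784). It was lower without overlap, as were 23.2% of all genes tested. These values are RNA levels and do not measure editing or protein. All 9 myeloid markers were at 7.41 TPM or more in every library. Of the markers of other cells, MS4A1 was at 0, CD3E, EPCAM and VWF were at most 0.325 TPM and the 3 fibroblast genes at most 0.652 TPM, but CD3D reached 11.5 TPM and PECAM1 77.9 TPM, and HBB was at 188 and 61.1 TPM with sgKAT6A and 38.6 and 192 TPM with EV. Among other small RNAs, the spliceosomal RNU genes summed to 1372 and 11144 TPM with sgKAT6A and 318 and 2138 TPM with EV. The box C/D SNORD genes summed to 6744 and 26819 TPM with sgKAT6A and 4363 and 7545 TPM with EV. The ribosomal RNA symbol RNA18SN5 was at 12031 and 340 TPM with sgKAT6A and 10401 and 13751 TPM with EV. sgKAT6A replicate 2 had the highest RNU and SNORD sums and the lowest RNA18SN5. The RNU sum was higher in replicate 2 than in replicate 1 of both groups, 8.12 times with sgKAT6A and 6.73 times with EV. The part of these RNAs in the results below was not tested.

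The 97 SNORA genes had less TPM in sgKAT6A replicate 2 than in any other library, 0.458 times the level of sgKAT6A replicate 1. They summed to 2247 and 1030 TPM in sgKAT6A replicates 1 and 2, and to 2151 and 2025 TPM in EV replicates 1 and 2. The means were 1639 ± 860 TPM with sgKAT6A and 2088 ± 88.7 TPM with EV (SD, n = 2 each), a ratio of 0.785, and the groups overlapped (exact two-sided permutation p = 1, where the smallest possible is 0.333). Without sgKAT6A replicate 2 the difference of the means was 159 TPM in the other direction. The 23 SCARNA genes summed to 252 and 408 TPM with sgKAT6A and to 198 and 191 TPM with EV, with no overlap (exact two-sided permutation p = 0.333, the smallest possible). SCARNA2 and SCARNA21, singled out after their values were seen, made most of that difference, since the other 21 summed to 155 and 130 TPM with sgKAT6A and 158 and 121 TPM with EV.

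The abundant RNAs were few. Only 12 averaged at least 50 TPM, and 50 averaged under 5 TPM. SNORA40 led with 229 and 60.4 TPM in sgKAT6A replicates 1 and 2, against 238 and 210 TPM in EV replicates 1 and 2. SNORA40 was thus close in 3 libraries and low in sgKAT6A replicate 2, and the groups overlapped (log2 difference -0.92 ± 0.69 (SE), limma adjusted p = 0.784). SNORA70 had 114 and 43.6 TPM with sgKAT6A, against 118 and 96.2 TPM with EV. SNORA73A, a U17 RNA that acts in cleavage of the ribosomal RNA precursor and not as a known modification guide, had 86.1 and 29.2 TPM with sgKAT6A, against 87.4 and 45.2 TPM with EV. Without sgKAT6A replicate 2 the log2 differences of SNORA40, SNORA70 and SNORA73A were 0.033, 0.10 and 0.45. SNORA33 and SNORA68 were lower in both sgKAT6A libraries, with 72.5 and 15.2 TPM with sgKAT6A against 136 and 84.5 TPM with EV for SNORA33. For SNORA68 the values were 61.2 and 16.4 TPM with sgKAT6A and 68.1 and 93.3 TPM with EV.

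**Figure D1:**
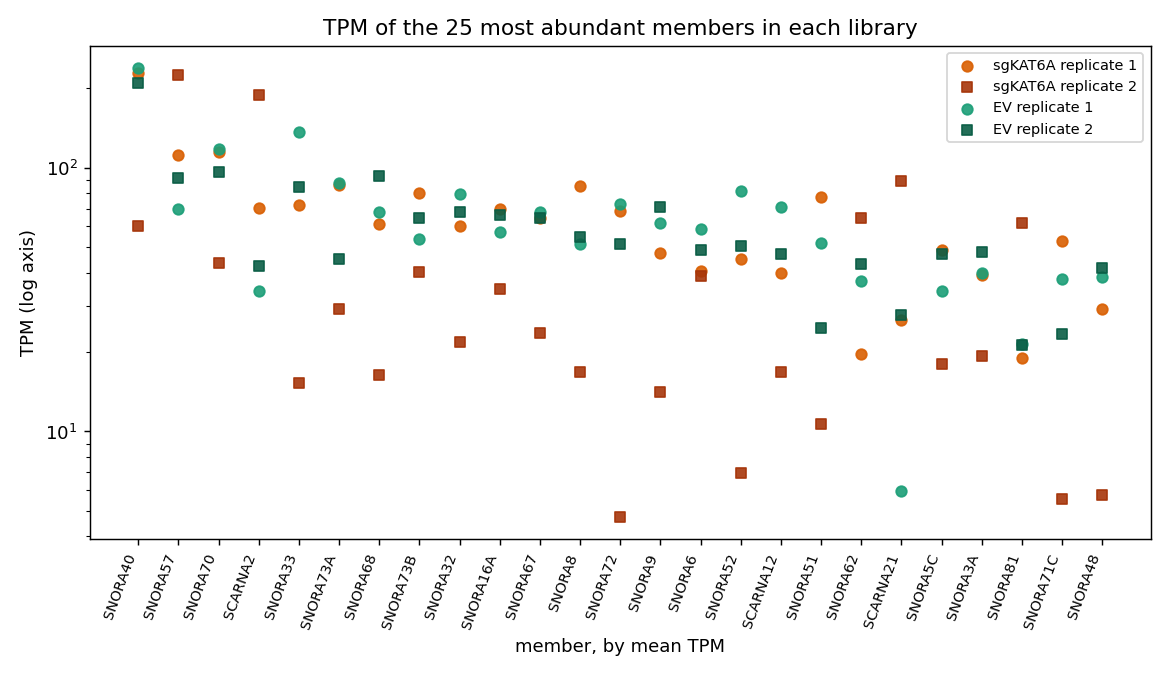
TPM on a log axis of the 25 box H/ACA and Cajal body RNAs with the highest mean, 1 point per library, in order of the mean. sgKAT6A replicate 2 (dark orange squares) lies below the other libraries for most of them, such as SNORA40 at 60.4 TPM, and above them for SNORA57, SCARNA2, SNORA62, SCARNA21 and SNORA81.

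No gene of the 120 passed the test between sgKAT6A and EV. With limma, 0 of 120 had an adjusted p under 0.05, as did 0 of all 12603 genes tested (0%), and 10 of the 120 (6 SNORA and 4 SCARNA) had an unadjusted p under 0.05, against 459 of all genes (3.64%). Adjusted p ran from 0.615 for SNORA13 upward. Both sgKAT6A libraries lay above both EV libraries for 10 of the 120 (8.33%), against 14.4% of all genes tested, and below both for 23 (19.2%), against 23.2%. Neither share exceeded that of all genes. Among the 68 RNAs above 0 in all libraries, 26.5% were lower and 10.3% higher without overlap. Among the 29 with a mean of at least 20 TPM, 12 (41.4%) were lower and 2 (6.90%) higher. Of those 29, 24 were lowest in sgKAT6A replicate 2 (82.8%), against 39.1% of all genes. The median log2 difference was -0.34 over the 97 SNORA and 0.55 over the 23 SCARNA, against -0.016 over all genes. The SNORA median was 0.24 without sgKAT6A replicate 2 and -1.11 without sgKAT6A replicate 1, so a single library set its sign. The SCARNA median was 0.54 without sgKAT6A replicate 2, 0 without sgKAT6A replicate 1 and 0.037 without EV replicate 2.

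The low values came in steps. In each library, most low values lay near whole multiples of a smallest value, which was lower for longer RNAs. Exceptions remained, such as SNORA10 at 0.586 TPM, or 0.501 step, in sgKAT6A replicate 2. For an RNA of the length of SNORA13 the step was 2.26 and 1.17 TPM in sgKAT6A replicates 1 and 2, and 2.06 and 2.21 TPM in EV replicates 1 and 2. Of the values of up to 10 steps, 91.8% of 73 and 82.5% of 57 lay within 0.1 step of a whole number in sgKAT6A replicates 1 and 2, as did 87.3% of 79 and 93.2% of 59 in EV replicates 1 and 2. The steps were fitted to make the most of these same values whole, so the shares describe the fit and test nothing. A step has the form that 1 counted fragment would give, although TPM keeps no read depth and no count model was applied. On that scale 35 of the 120 RNAs stayed under 5 steps in every library, and 72 under 10 steps. A total of 68 were above 0 in all 4 libraries.

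**Figure D2:**
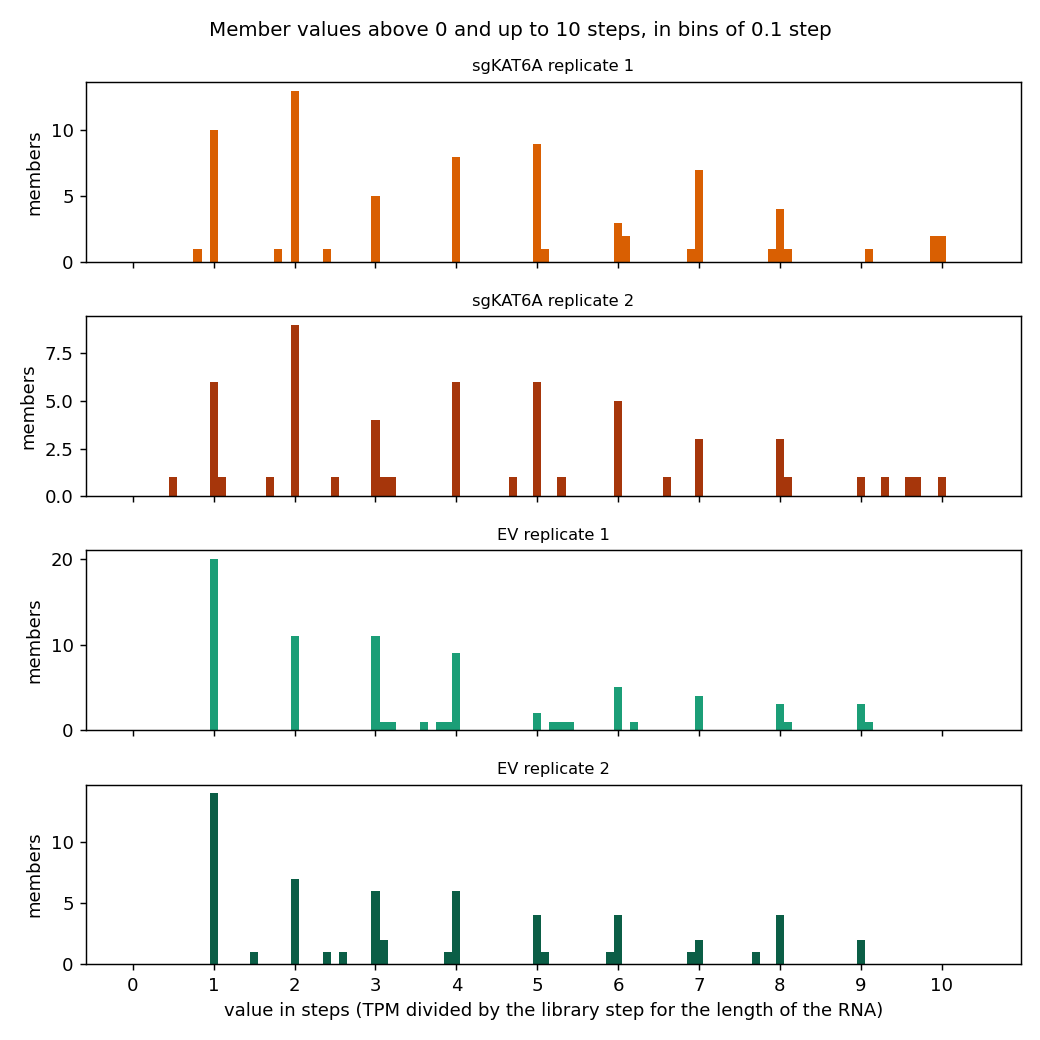
Number of RNAs (vertical axis) by value in steps (horizontal axis, TPM divided by the library's step for that length, bins of 0.1), for values above 0 and up to 10 steps, with 1 panel per library. The bars stand at whole numbers for 82.5% to 93.2% of these values, to which the steps were fitted.

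Summed over the 97 SNORA, the values were 1045 and 1015 steps with sgKAT6A and 1097 and 960 steps with EV. SNORA57, SNORA62 and SNORA81, singled out after their values were seen, carried much of the total of sgKAT6A replicate 2. The other 94 SNORA summed to 969 and 644 steps with sgKAT6A and 1024 and 879 steps with EV, so they were lowest in sgKAT6A replicate 2 in steps as well as in TPM. Steps are not scaled for depth, which is unknown here. The step of sgKAT6A replicate 2 was also the smallest in TPM at the length of SNORA13. The step also depended on length. At the greater length of SNORA81 it was 0.789 TPM in sgKAT6A replicate 2 and 1.75 TPM in sgKAT6A replicate 1, against 1.56 TPM in EV replicate 1 and 1.66 TPM in EV replicate 2. The step thus became smaller with length by the largest factor in sgKAT6A replicate 2, and its part in the differences was not tested. Steps are not given for the longest SCARNA genes, where few low values fixed them.

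Several of the RNAs with the smallest p rested on few steps. SNORA13, which guides pseudouridylation of a ribosomal RNA position that is later modified further, was at 0 and 0 TPM with sgKAT6A, against 6.19 and 11.1 TPM with EV (log2 difference -3.22 ± 0.33 (SE), limma adjusted p = 0.615). Those EV values were 3 and 5 steps. Its host EPB41L4A-AS1 was at 25.8 and 24.0 TPM with sgKAT6A and 30.4 and 31.7 TPM with EV. SNORA75B was listed at 0 and 0 TPM with sgKAT6A and at 2.00 and 2.15 TPM with EV, which was 1 step in each EV library. SNORA23 was listed at 0 and 0 TPM with sgKAT6A and at 2.91 and 1.56 TPM, or 2 steps and 1 step, with EV. SCARNA1 was at 0 and 0 TPM with sgKAT6A and at 4.91 and 1.73 TPM with EV. On the other side, SNORA54 was at 4.77 and 1.32 TPM, or 2 steps and 1 step, with sgKAT6A and at 0 and 0 TPM with EV. SNORA37 and SNORA31 had 9.26 and 16.1 TPM in sgKAT6A replicate 1, and 4 and 7 steps, but 2.45 and 3.64 TPM in sgKAT6A replicate 2. EV replicate 1 had 2.12 TPM of SNORA37 and 2.11 TPM of SNORA31, and EV replicate 2 had 0 and 2.28 TPM. SNORA2A was at 6.73 and 4.59 TPM with sgKAT6A and 0 and 4.37 TPM with EV.

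Among RNAs with more signal, SNORA1 was lower in both sgKAT6A libraries. It had 2.30 and 6.06 TPM with sgKAT6A, or 1 and 5 steps, against 16.9 and 25.1 TPM with EV, or 8 and 11 steps (log2 difference -2.16 ± 0.45 (SE), limma adjusted p = 0.784). Within replicate number 1 the difference was -2.44 and within number 2 it was -1.89. SNORA1B, a copy with 94.7% identity, was at 2.27 and 0 TPM with sgKAT6A and 2.06 and 0 TPM with EV, so the sum of the pair was 4.57 and 6.06 TPM with sgKAT6A against 18.9 and 25.1 TPM with EV. Of the other RNAs of the same host, only SNORA32 was also lower in both sgKAT6A libraries, whereas SNORA8, SNORA18, SNORA25 and SNORA40 overlapped. SNORA32 had 60.4 and 21.8 TPM with sgKAT6A against 79.7 and 67.7 TPM with EV, and SNORA8 had 85.0 and 16.8 TPM with sgKAT6A against 51.3 and 54.9 TPM with EV. TAF1D itself was at 59.5 and 46.1 TPM with sgKAT6A and 59.8 and 61.7 TPM with EV. SNORA52 had 45.1 and 6.96 TPM with sgKAT6A against 81.8 and 50.7 TPM with EV. SNORA21B rested on few steps. It had 11.2 and 0 TPM with sgKAT6A against 12.2 and 17.5 TPM with EV. Those values were 5 and 0 steps with sgKAT6A, and 6 and 8 steps with EV.

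Nearly all of the shorter abundant RNAs were low in sgKAT6A replicate 2, while the longer ones were divided. Among the 29 RNAs with a mean of at least 20 TPM, 21 were 121 to 139 bases long and 8 were 149 to 420 bases long, a split chosen after the values were seen. Of these 21, 20 were lowest in sgKAT6A replicate 2, and SCARNA21 was the exception. Of the 8 longer ones, 4 were highest there and 4 lowest. Over all 12603 genes tested, 39.1% were lowest and 31.4% highest in that library. The median difference between sgKAT6A replicate 2 and sgKAT6A replicate 1 was -1.84 log2 units for the short and 0.47 for the long RNAs. Between EV replicate 2 and EV replicate 1 it was -0.17 and 0.096. Across the 29 RNAs, Spearman's rho between length and the difference of the sgKAT6A libraries was 0.39, given as a description because the points share their libraries.

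**Figure D3:**
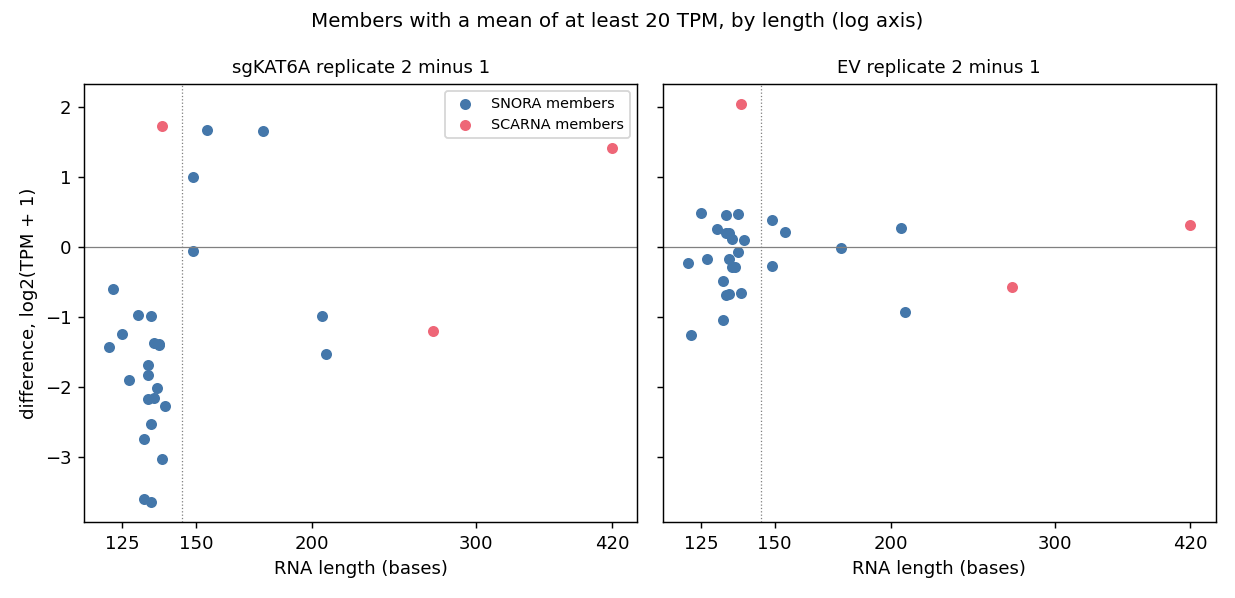
Difference in log2(TPM + 1) between the replicates of a group (vertical axis) against RNA length in bases (log axis) for the 29 RNAs with a mean of at least 20 TPM, with a dotted line between the 21 shorter and the 8 longer ones. On the left, for the sgKAT6A libraries, 20 of 21 short RNAs lie below 0, and on the right the EV libraries scatter on both sides of 0.

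In TPM, RNAs from a single host also differed from each other between the sgKAT6A libraries. From RPSA, SNORA62 had 19.6 and 64.4 TPM with sgKAT6A against 37.2 and 43.0 TPM with EV, and SNORA6 had 40.6 and 38.8 TPM with sgKAT6A against 58.7 and 48.6 TPM with EV, while RPSA was at 1584 and 1847 TPM with sgKAT6A and 1790 and 2010 TPM with EV. These 2 RNAs, printed above, both belonged to the longer group and share 71.2% of their aligned bases. In steps, SNORA62 and SNORA6 were both highest in sgKAT6A replicate 2, whereas SNORA6 was lowest there in TPM. SNORA6 had 19.9 and 39.0 steps with sgKAT6A against 31.8 and 24.6 steps with EV. From EIF4A2, SNORA81 had 18.9 and 61.9 TPM with sgKAT6A against 21.4 and 21.2 TPM with EV. SNORA63 had 17.9 and 6.89 TPM with sgKAT6A against 18.3 and 10.9 TPM with EV, and SNORA4 had 13.3 and 0 TPM with sgKAT6A against 2.00 and 6.45 TPM with EV. SNORA81 was thus high in sgKAT6A replicate 2 alone, and the shorter RNAs of the same gene had their lowest TPM there, on few steps. SNORA63 was at 8 and 6 steps with sgKAT6A and 9 and 5 steps with EV. SNORA4 was at 6 and 0 steps with sgKAT6A and 1 and 3 steps with EV. SNORA57 had 112 and 224 TPM with sgKAT6A against 69.7 and 91.4 TPM with EV, with no overlap (log2 difference of 0.98 ± 0.39 (SE), limma adjusted p = 0.784). Its host CSKMT averaged 4.26 ± 2.46 TPM with sgKAT6A and 3.97 ± 0.0954 TPM with EV (SD, n = 2 each), so its level per length was far below that of SNORA57.

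Hosts and their RNAs were only loosely related. Over 103 RNAs whose host was tested, in 76 hosts, Pearson's r between the log2 difference of the RNA and that of its host was 0.19 and Spearman's rho was 0.24. For the 27 with a mean of at least 20 TPM the values were 0.27 and 0.12, with a median difference of -0.65 for the RNAs and -0.17 for their 21 hosts. These values are descriptions, since RNAs of 1 host share its value and most RNAs rest on few steps. NOP56, the host of SNORA51 and a core protein of box C/D particles, was at 205 and 123 TPM with sgKAT6A and 271 and 204 TPM with EV. SNORA51 was at 77.4 and 10.7 TPM with sgKAT6A and 52.0 and 24.7 TPM with EV.

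Of the 23 SCARNA genes, SCARNA2, SCARNA10, SCARNA13 and SCARNA17 had more TPM in both sgKAT6A libraries than in either EV library, although none passed. This is 17.4%, near the 14.4% of all genes. SCARNA2, a box C/D RNA that guides methylation of U2 small nuclear RNA and that no annotated host contains here, was at 70.5 and 189 TPM with sgKAT6A against 34.1 and 42.5 TPM with EV. The difference on the log2 scale was 1.58 ± 0.52 (SE; 95% interval 0.12 to 3.03; limma adjusted p = 0.784). SCARNA17, a box C/D RNA of U4, was at 15.2 and 19.6 TPM with sgKAT6A against 3.45 and 9.28 TPM with EV. SCARNA13 was at 7.09 and 4.24 TPM with sgKAT6A against 3.23 and 3.18 TPM with EV. SCARNA10, a mixed RNA that guides both kinds of modification of U5, was at 7.92 and 24.3 TPM with sgKAT6A against 4.42 and 3.52 TPM with EV. SCARNA21, a box H/ACA RNA of U12, was at 26.4 and 88.9 TPM with sgKAT6A against 5.96 and 27.7 TPM with EV, and the groups overlapped by a small margin. SCARNA12, a mixed RNA in PHB2, was lower in both sgKAT6A libraries, with 40.0 and 16.8 TPM with sgKAT6A against 70.7 and 47.0 TPM with EV. SCARNA27 was at 23.5 and 14.0 TPM with sgKAT6A and 8.64 and 28.3 TPM with EV. All 4 SCARNA listed as box C/D were highest in sgKAT6A replicate 2, the library in which the SNORD and RNU totals were highest as well. Gene by gene, 33.1% of the 181 SNORD genes tested and 34.8% of all 23 SCARNA were highest there, against 31.4% of all genes. The 4 are 330 to 421 bases long, so class and length cannot be told apart. SCARNA9 led only by 14.3 TPM against 12.4 TPM in sgKAT6A replicate 1 and in EV replicate 1. SCARNA9L, which shares its number with SCARNA9 but was counted among the other 15, was lowest in sgKAT6A replicate 2. It had 2.25 and 0.608 TPM with sgKAT6A against 4.31 and 2.01 TPM with EV. The median log2 difference was 1.23 for the 4 box C/D, 0.21 for the 4 mixed and 0.42 for the other 15 SCARNA.

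**Figure D4:**
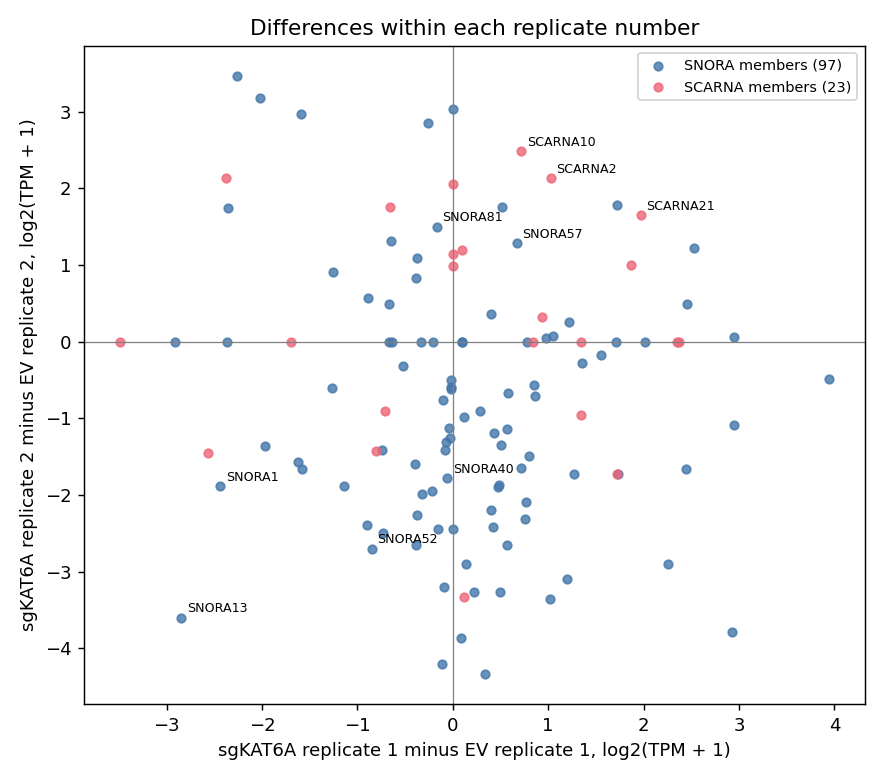
Difference in log2(TPM + 1) between sgKAT6A and EV within replicate number 1 (horizontal axis) and within number 2 (vertical axis) for the 97 SNORA (blue) and 23 SCARNA (pink) genes. SCARNA2, SCARNA10, SCARNA21 and SNORA57 are above 0 on both axes, SNORA13, SNORA1 and SNORA52 below 0 on both, and many SNORA such as SNORA40 lie near 0 on the first axis and below 0 on the second.

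Families of copies were summed because reads of like copies may be split. SNORA73A and SNORA73B, with 93.2% identity and both within RCC1 and SNHG3, summed to 167 and 69.4 TPM with sgKAT6A and 141 and 110 TPM with EV. The 5 SNORA71 copies, 4 of them in SNHG17, summed to 122 and 25.8 TPM with sgKAT6A and 71.7 and 62.1 TPM with EV. They are less alike, at 76.3% to 86.6% identity without SNORA71B. SNORA71B shared 41.3% to 45.6% with the others, in a GENCODE sequence of 272 bases against 136 in its RefSeq record. SNORA71B alone had 49.1 TPM in sgKAT6A replicate 1, and 11.4 TPM in sgKAT6A replicate 2, against a mean of 14.6 ± 2.20 TPM with EV (SD, n = 2). SNORA9 and SNORA9B, with 91.7% identity, summed to 49.9 and 14.1 TPM with sgKAT6A and 64.0 and 84.7 TPM with EV, a pair without overlap. The SNORA5 copies summed to 76.0 and 26.2 TPM with sgKAT6A and 56.8 and 56.2 TPM with EV. SNORA5A and SNORA5B share 89.6% identity, and SNORA5C shares 68.3% and 67.4% with them.

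None of the 29 partner genes tested passed, although most lay lower with sgKAT6A. Both sgKAT6A values were under both EV values for 21 of the 29, and above them for 0, where all genes give 23.2% in the lower and 14.4% in the higher direction. After quantile normalization 15 were lower without overlap, against 19.4% of all genes. With limma, 0 of the 29 had an adjusted p under 0.05 and 2 had an unadjusted p under 0.05 (GEMIN6 and TOE1). The median log2 difference was -0.44, and it was -0.33 within replicate number 1 and -0.49 within number 2. Between the replicates of a group, the median was -0.35 for sgKAT6A replicate 2 against 1 and -0.18 for EV replicate 2 against 1. Without sgKAT6A replicate 2 the median was -0.23.

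Of the 4 core proteins of the box H/ACA particle, DKC1, NOP10 and GAR1 were lower in both sgKAT6A libraries than in either EV library. DKC1, the pseudouridine synthase, was at 67.2 and 37.3 TPM with sgKAT6A against 85.9 and 71.3 TPM with EV (log2 difference -0.63 ± 0.33 (SE), limma adjusted p = 0.784). GAR1 was at 45.3 and 29.7 TPM with sgKAT6A against 71.5 and 49.5 TPM with EV, and NOP10 at 234 and 214 TPM with sgKAT6A against 283 and 264 TPM with EV. For NHP2, sgKAT6A replicate 1 at 274 TPM lay between the EV libraries. NHP2 was at 174 TPM in sgKAT6A replicate 2, against 342 and 266 TPM with EV. Of the assembly factors, RUVBL1 was at 53.6 and 30.8 TPM with sgKAT6A against 73.0 and 62.2 TPM with EV.

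Genes of the Cajal body and of RNA end processing did not pass either. COIL, encoding the scaffold protein coilin, was at 12.4 and 12.5 TPM with sgKAT6A against 15.8 and 15.0 TPM with EV. WRAP53, which carries SCARNA and telomerase RNA to Cajal bodies, was at 10.1 and 11.1 TPM with sgKAT6A against 12.9 and 11.5 TPM with EV. TOE1, a deadenylase that trims small nuclear RNA ends, was at 10.4 and 8.90 TPM with sgKAT6A against 13.9 and 12.9 TPM with EV (log2 difference -0.44 ± 0.14 (SE), limma adjusted p = 0.784). TERC, the telomerase RNA, which ends in a box H/ACA domain, was at 3.07 and 3.03 TPM with sgKAT6A and 4.22 and 1.78 TPM with EV. SMN1 and SMN2 are near-identical copies whose reads cannot be separated reliably, and the EV library with more SMN1 had less SMN2. SMN1 was at 60.9 and 62.0 TPM with sgKAT6A and 83.4 and 25.3 TPM with EV, and SMN2 was at 23.2 and 0 TPM with sgKAT6A and 9.67 and 57.0 TPM with EV. NOLC1, a nucleolar and Cajal body phosphoprotein that binds these particles, was at 66.5 and 38.0 TPM with sgKAT6A against 87.8 and 70.6 TPM with EV.

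**Figure D5:**
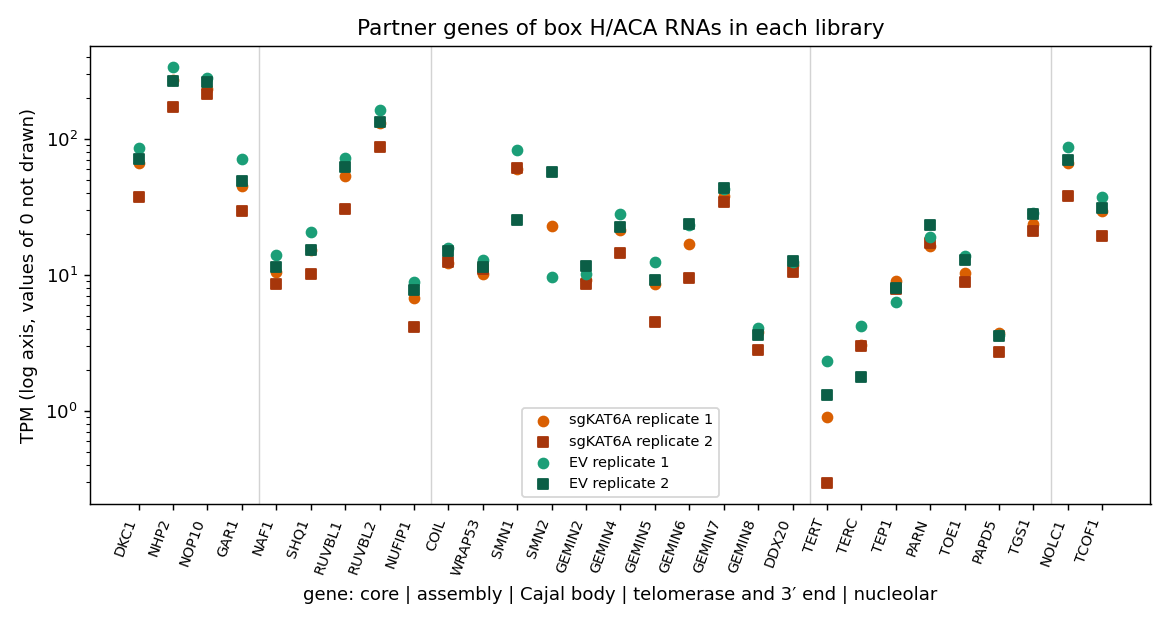
TPM on a log axis of the 29 partner genes in each library, 1 point per library, grouped by role. Both sgKAT6A libraries (orange) lie below both EV libraries (green) for 21 of the 29 genes, among them DKC1, GAR1, NOP10 and NAF1.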

How the data were processed

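RNA of 2 sgKAT6A and 2 EV libraries was assigned to groups by sample title. The authors deposited 1 table of TPM by symbol; the submitters' processing notes name Salmon and hg38. The Salmon version, annotation and filters: not given in the sources used here. TPM keeps no read depth, so no counting intervals were computed, and no count model was used.

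Values were used as deposited. The 12603 genes that averaged 1 TPM or more were tested as log2(TPM + 1) with limma 3.58.1 in R 4.3.3 (empirical Bayes with a mean-variance trend, two-sided, Benjamini-Hochberg over all genes tested, threshold 0.05). Fold changes on this scale are understated for low genes. For each library, K and a in step = K / (length - a) were chosen to make the most values of up to 10 steps whole, within 0.05 step, with a penalty on values well under 1 step.

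Lengths came from RefSeq records (GRCh38.p14) and sequences, strands and hosts from GENCODE 29 (GRCh38). Where several genes contained an RNA, the one with the highest TPM was its host.

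Named were the 6 SNORA and 4 SCARNA with the highest mean, the 8 with the largest difference in each direction among those without overlap, copies, hosts, core partners, and RNAs at the limit. SNORA8, SNORA18, SNORA25, SNORA32, SNORA51, SNORA1B, SNORA71B, SCARNA13, SNORA10 and the split by length were added after their values were seen. So were SNORA62, SNORA6, SNORA81, SNORA63, SNORA4 and partners outside the core. The members and lists were chosen with earlier results of these data known. Alternatives were the pseudocount, filter, scaling, variance trend, replicate block and each library left out. Figures used matplotlib 3.10.9.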

Additional observations from a re-analysis of the deposited data

How the results depend on the processing

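None of the 120 RNAs, of the 23 named among them or of the 29 partner genes was called by limma under any alternative, and 19 of the 23 named RNAs kept the sign of their difference throughout. With 2 libraries per group and values of few steps, even SNORA13 at -3.22 did not pass. With a mean of at least 5 TPM, 6 RNAs of the 70 left were higher and 19 lower without overlap, against 12.0% and 27.3% of all genes. Leaving out a library in turn gave 18 to 50 RNAs higher and 28 to 58 lower without overlap, where 1 library faces 2, against 19.5% to 39.2% and 33.1% to 44.1% of all genes. The 50 higher came without sgKAT6A replicate 2 (27.6% of all genes) and the 58 lower without sgKAT6A replicate 1 (44.1%). SNORA medians ran from -1.11 to 0.24 and SCARNA medians from 0 to 0.76, and the difference of summed SNORA TPM from -1058 to 159. Signs turned for SNORA40 (range -1.87 to 0.033), SNORA70 (-1.27 to 0.10), SNORA73A (-1.08 to 0.45, and 0.15 without EV replicate 1) and SCARNA27 (-0.61 to 0.99, and -0.16 without sgKAT6A replicate 1). The cause was not tested beyond the library left out. The partner count of 21 lower was 15 with quantile normalization.

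The replicate numbers are not stated to pair the libraries. The differences between replicates correlated between groups with r = 0.45 over all genes and 0.045 over the 120 RNAs. In a fit with a replicate block, 15 genes were called, 0 of them among the 120.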
